A study of Drosophila melanogaster with 8 samples.

Results

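Messenger RNAs of cytosolic ribosomal proteins were followed in RNA immunoprecipitates (IPs) of 2 related RNA-binding proteins made in SL2, a cell line of male Drosophila melanogaster. The 60 genes were taken by FlyBase identifier from a list of cytosolic RpL, RpS, RpLP and sta genes, and all 60 had reads among the 17559 genes of the authors' comparison tables. The tagged protein was SXL (Sex-lethal), SSX (its relative, Sister of Sex-lethal) or GFP (a fluorescent protein), all with a FLAG-3xHA-tag, and every IP used a mouse monoclonal antibody against FLAG. There were 2 libraries of SXL IP, 3 of SSX IP and 2 of GFP IP; an input library (1) is not analysed here. What the groups shared was the cell line, the tag and the antibody; they differed in the tagged protein. How the tagged proteins were expressed, and whether from 1 clone, is not given in the sources used here. The GFP IP is the background: it holds RNA recovered with a tagged protein that is not known to bind RNA.

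Cytosolic ribosomal proteins, together with ribosomal RNA, form the large (RpL, with the stalk proteins RpLP) and the small (RpS, sta) subunits of the ribosome that translates the mRNAs of the cell. Their mRNAs are short, abundant and translated at high rates, and in many animals they begin with a run of pyrimidines through which the TOR kinase adjusts their translation. SXL binds uridine-rich stretches of RNA, and in females it controls splicing and translation of a small number of known targets. The comparisons show the level of this abundant, housekeeping class of mRNA, relative to the other RNA of each IP, beside the GFP background. They do not measure the amount of RNA recovered. None of the 60 identifiers is paired with a symbol in the sources used here, so genes are given by identifier, results are not ordered by subunit, and that these are ribosomal protein genes rests on the list itself. RefSeq holds 93 genes with a symbol that starts with RpL or RpS or is sta, so the list is a part of the class, and further members may stand among the genes called other genes below.

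Ribosomal protein mRNAs made up a smaller share of the RNA recovered with either protein than of the RNA in the GFP IP. Together the 60 genes held 8.29% of the normalized counts in the SXL IP, 3.34% in the SSX IP and 26.5% in the GFP IP. The share in the GFP IP was thus 3.20 times that in the SXL IP and 7.93 times that in the SSX IP. These shares come from group means implied by the authors' mean normalized count and their fold changes, since no counts per library were at hand for these genes, so they carry no SD. A share does not depend on how libraries were scaled against each other, but it falls when other RNAs are enriched. The 956 genes that the authors listed as enriched held 40.2% of the normalized counts in the SXL IP, 58.5% in the SSX IP and 6.94% in the GFP IP. With those genes left out, the ribosomal protein share was 13.9% in the SXL IP, 8.05% in the SSX IP and 28.5% in the GFP IP, and the order of the groups was kept.

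The medians over the genes stood in the same order as the shares. The median implied mean normalized count of the 60 genes was 2813 in the SXL IP, 1529 in the SSX IP and 12705 in the GFP IP. The lowest and the highest gene had 78.2 and 16292 in the SXL IP, 32.5 and 12167 in the SSX IP, and 153 and 62415 in the GFP IP. The genes therefore spanned wide and overlapping ranges in all groups, and it is within each gene that the groups differ. Size factors were 3.33 and 3.59 for SXL, 1.87 to 2.15 for SSX, and 0.0886 and 0.120 for GFP. Between SXL and SSX they differed by more than the implied total reads. Those totals were 8.20e+06 and 8.86e+06 for SXL and 6.48e+06 to 7.44e+06 for SSX. The GFP libraries were shallow, with implied totals of 306804 and 417046 reads. Ribosomal protein mRNAs were well covered even there: the median gene had an implied 1126 and 1530 reads in the GFP libraries, and the least covered gene 13.6 and 18.5. The implied mean normalized counts are scaled by size factors and are not parts of a group's total. Behind a lower value, less recovery of these mRNAs, less of them per cell and more recovery of other RNAs cannot be told apart.

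**Figure D1:**
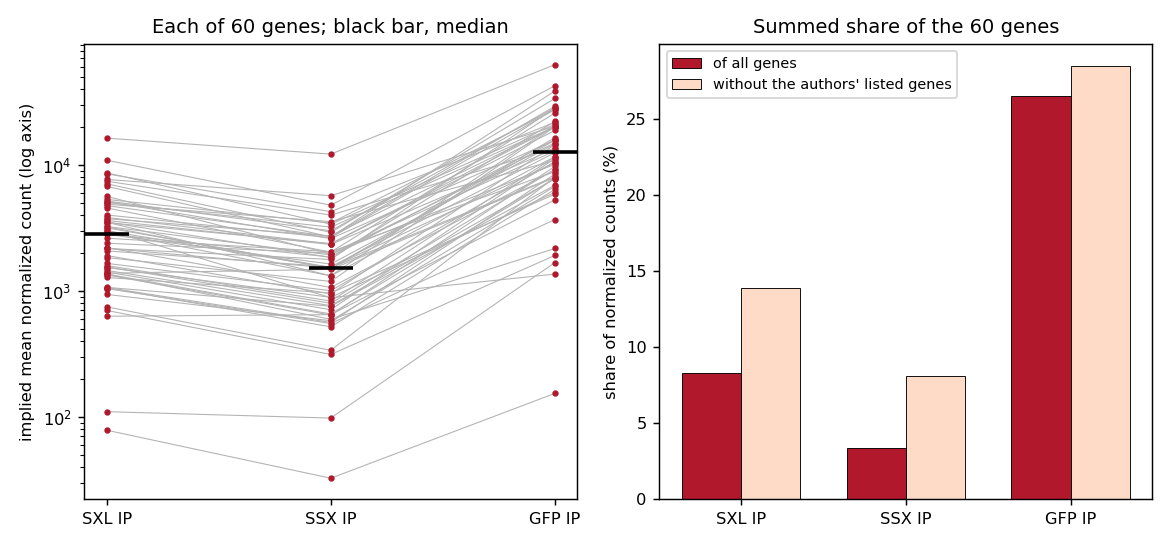
Left, the implied mean normalized count (log axis) of each of the 60 ribosomal protein genes in the SXL IP, SSX IP and GFP IP, with lines joining the values of a gene and black bars at the medians of 2813, 1529 and 12705; right, the summed share of normalized counts (%) held by the 60 genes, among all genes and without the 956 listed genes. The share is lowest in the SSX IP and highest in the GFP IP with either set of genes.

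In the SXL IP, 56 of the 60 ribosomal protein mRNAs fell relative to the GFP IP, 1 rose and 3 did not pass an adjusted p of 0.05 in the authors' deposited table. Over all 7170 genes tested there, 13% were called lower and 16.4% higher. The median log2 fold change of the 60 genes in the authors' deposited table was -2.42, a level 5.36 times lower with SXL than with GFP, and the median of all tested genes was 0.09. By the authors' deposited table, 40 genes were lower by more than 2 on the log2 scale and 5 by more than 3, while the lower quartile of all tested genes was -0.71. The 56 called genes ran from -3.93 to -0.87, and the largest adjusted p among them was 0.00059 in the authors' deposited table. The standard errors ran from 0.14 to 0.50 with a median of 0.24, while the SD of the 60 fold changes was 0.82 in the authors' deposited table. The genes thus differed from each other by more than their typical standard error.

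The 2 lowest genes of the SXL comparison were FBgn0015288 and FBgn0026372. FBgn0015288 had an implied mean normalized count of 110 in the SXL IP and 1675 in the GFP IP, and a log2 fold change of -3.93 (SE 0.31, adjusted p = 4.2e-35) in the authors' deposited table. FBgn0026372 had 2169 in the SXL IP and 28317 in the GFP IP, with -3.71 (SE 0.22, adjusted p = 1.1e-58) in the authors' deposited table. FBgn0015288 had few reads for this class and FBgn0026372 many. Across the 60 genes, which are not independent replicates and share all libraries, Spearman's rho between mean normalized count and log2 fold change was 0.08 for SXL in the authors' deposited table. The 3 genes that did not pass had log2 fold changes of -0.97, -0.85 and -0.67, with adjusted p of 0.133, 0.072 and 0.119, in the authors' deposited table. All 3 lay on the same side as the others, at the shallow end.

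The gene that rose with SXL was FBgn0040007, and it is the exception of the class. Its log2 fold change was 1.17 (SE 0.45, adjusted p = 0.037) in the authors' deposited table. Its implied mean normalized counts were 3048 in the SXL IP, 881 in the SSX IP and 1358 in the GFP IP, and 1 gene of the 60 had a lower GFP value. The call was lost when p-values were adjusted over every gene with a p-value (adjusted p = 0.063) and when fold changes were centred on the median of all tested genes (log2 fold change 1.08, adjusted p = 0.058) or of those with a mean normalized count of 100 or above (0.64, adjusted p = 0.288). It was kept when p-values were adjusted only over genes with a mean normalized count of 100 or above (adjusted p = 0.020). With SSX the same gene had -0.62 (SE 0.42, adjusted p = 0.217) in the authors' deposited table. After centring the gene passed on the lower side with SSX (log2 fold change -1.06, adjusted p = 0.027, or -1.68, adjusted p = 0.00022, by the centring on genes with a mean of 100 or above).

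In the SSX IP, 59 of the 60 ribosomal protein mRNAs fell relative to the GFP IP, and FBgn0040007 did not pass. Of the 9034 genes with an adjusted p in the authors' deposited table, 19.3% were called lower and 26.2% higher (1741 and 2364 genes, which became 2404 lower and 1777 higher when fold changes were centred on the median of tested genes). The median log2 fold change of the 60 genes was -3.10 in the authors' deposited table, a level 8.56 times lower with SSX than with GFP, against a median of 0.44 over all tested genes. By the authors' deposited table, 55 genes were lower by more than 2 on the log2 scale and 34 by more than 3. The 59 called genes ran from -4.57 to -1.61 with a largest adjusted p of 1.4e-05, at a median standard error of 0.22, in the authors' deposited table. The lowest was FBgn0000100, with an implied mean normalized count of 337 in the SSX IP and 7991 in the GFP IP. Its log2 fold change was -4.57 (SE 0.25, adjusted p = 7.8e-70) in the authors' deposited table. FBgn0015288 came next with -4.10 (SE 0.29, adjusted p = 1.1e-44) in the authors' deposited table. Spearman's rho between mean normalized count and log2 fold change over the 60 genes was -0.01 in the authors' deposited table. The SXL and SSX comparisons share the GFP libraries, so that the genes fell in both is not independent evidence.

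**Figure D2:**
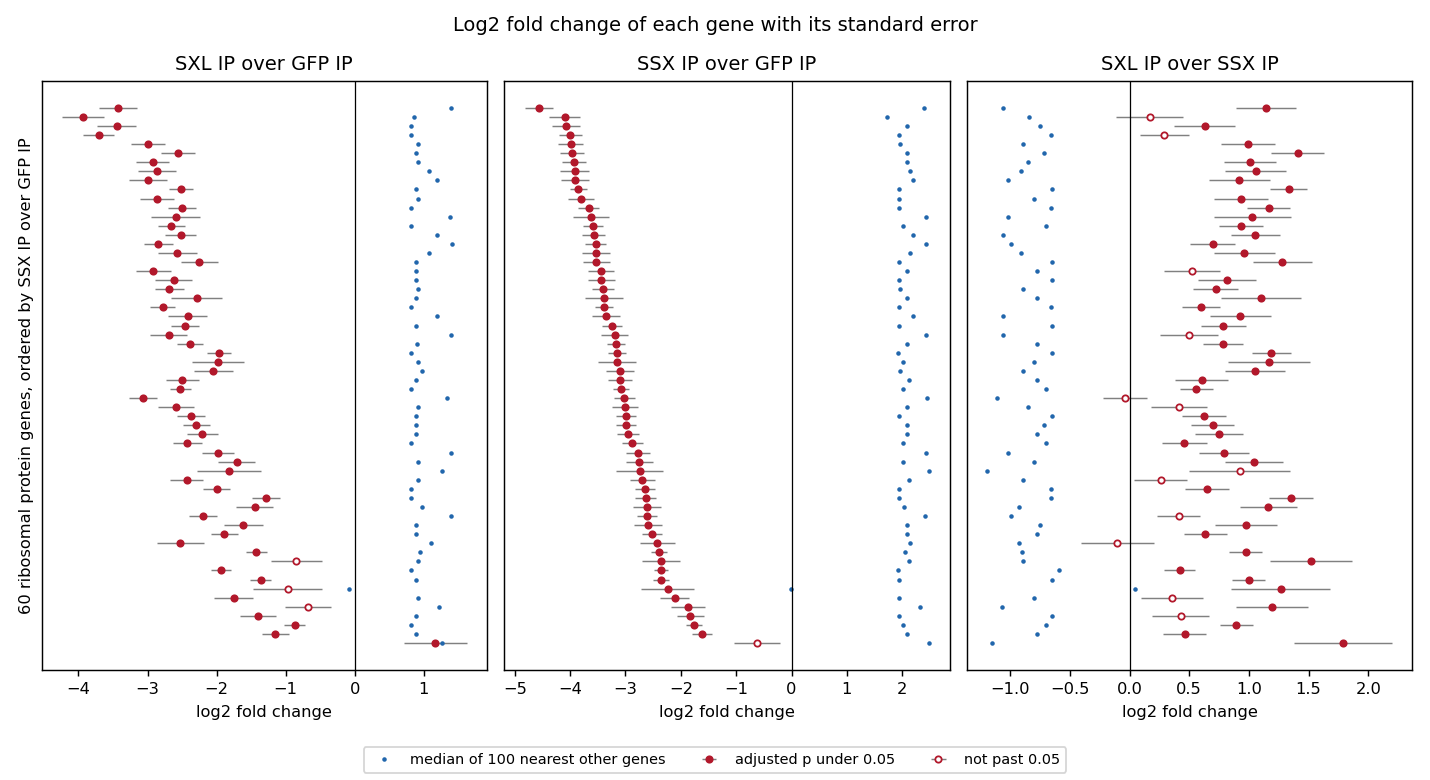
Log2 fold change (x axis) of each of the 60 ribosomal protein genes, 1 row a gene in the order of the SSX IP over GFP IP values, in the authors' 3 tables; bars are standard errors, filled points passed an adjusted p of 0.05, and blue points are the median of the 100 other tested genes nearest in mean normalized count. With SXL over GFP 56 genes passed on the lower side, with SSX over GFP 59, and with SXL over SSX 48 passed on the higher side.

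Other genes of like mean normalized count mostly stood on the opposite side. For each ribosomal protein gene, the 100 other tested genes nearest in mean normalized count were taken, 686 different genes in all. Against GFP, the median of the nearest genes was itself at a median log2 fold change of 0.89 (SXL) and 2.09 (SSX) by the authors' deposited tables. A ribosomal protein gene was lower than the median of its nearest genes by 0.10 to 4.82 for SXL and by 2.23 to 6.96 for SSX, with medians of the difference (gene minus nearest genes) of -3.34 and -5.20 from the authors' deposited tables. All 60 genes lay below the median of their nearest genes in both comparisons. They were not, as a rule, the lowest of their neighbourhood: at the median, 16% of the nearest genes for SXL and 14% for SSX had a lower fold change still. These are descriptions and not tests, since the 60 genes were chosen as a class and share all libraries. The matched mean is taken over all 7 libraries and so holds the compared values themselves. At an equal mean, a gene lower with SXL and SSX is higher with GFP. The nearest genes are thus not alike in their GFP level, and the part of this matching in the differences was not tested.

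Among abundantly read genes the class accounted for a large part of those that fell. With the mean normalized count at 1000 or above, the authors' deposited tables held 57 ribosomal protein genes and 429 other genes. That mean is taken over all 7 libraries, so a gene can pass through the group where it is high. FBgn0000100 passed with implied values of 745 in the SXL IP, 337 in the SSX IP and 7991 in the GFP IP. The contrasts that follow can thus be partly set by the filter, and how far was not tested. With SXL, 54 of the 57 (94.7%) were called lower, against 76 of the 429 others (17.7%), of which 66.4% were called higher, in the authors' deposited table. With SSX, 56 of the 57 (98.2%) were called lower, against 81 of the 429 others (18.9%), of which 76.0% were called higher, in the authors' deposited table. Of the 119 genes at that read support that fell by more than 1 on the log2 scale with SXL, 53 (44.5%) were ribosomal protein genes, and with SSX 56 of 132 (42.4%), by the authors' deposited tables. The other called genes fell to a like extent. Their median log2 fold change was -2.10 (SXL) and -2.78 (SSX), and that of the ribosomal protein genes called was -2.45 and -3.12, in the authors' deposited tables. The spread differed: the middle 50% of the other called genes ran from -4.15 to -1.22 for SXL in the authors' deposited table.

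**Figure D3:**
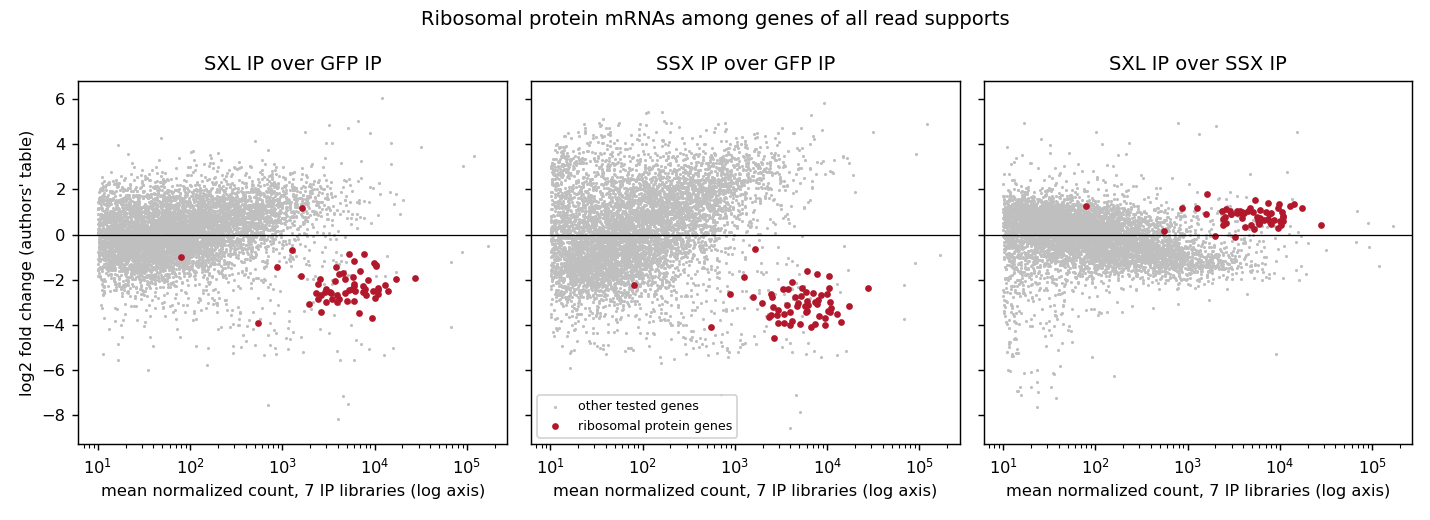
Log2 fold change against mean normalized count over 7 libraries (log axis) for tested genes with a mean of at least 10, in the authors' 3 tables, with the 60 ribosomal protein genes in red and other genes in grey. The red points form a group of high read support below 0 in both comparisons with GFP, with medians of -2.42 and -3.10, and above 0 for SXL over SSX, with a median of 0.91.

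Directly compared, ribosomal protein mRNAs were higher with SXL than with SSX. By the authors' deposited table, 48 of the 60 genes were higher with SXL, 0 were lower and 12 did not pass. Of all 9500 genes tested there, 11.5% were called higher with SXL and 25.9% lower (1094 and 2462 genes, against 1690 higher and 1922 lower after centring). The median log2 SXL over SSX of the 60 genes was 0.91 in the authors' deposited table, a level 1.87 times higher with SXL, and the median of all tested genes was -0.23. By the authors' deposited table, 20 genes passed with a difference above 1 on the log2 scale, and 58 of the 60 values were above 0. The upper quartile of all tested genes was 0.50. The 12 genes that did not pass ran from -0.10 to 0.92 in the authors' deposited table. These are the same libraries as in the comparisons with GFP, and for all 60 genes this fold change equalled the difference of the other 2 within 0.01. Here too, less recovery of these mRNAs with SSX, less of them per cell and more recovery of other RNAs cannot be told apart.

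The highest SXL over SSX values belonged to FBgn0040007 and FBgn0261608. FBgn0040007 had 1.79 (SE 0.41, adjusted p = 9.2e-05) and FBgn0261608 had 1.52 (SE 0.34, adjusted p = 5.8e-05) in the authors' deposited table. FBgn0261608 had implied mean normalized counts of 5624 in the SXL IP, 1961 in the SSX IP and 10103 in the GFP IP. Against GFP it did not pass with SXL (-0.85, adjusted p = 0.072), and it fell with SSX (-2.37, adjusted p = 4.6e-11), by the authors' deposited tables. After centring it passed on the lower side with SXL too (-0.93, adjusted p = 0.043). At the other end, FBgn0014026 had -0.10 (SE 0.31, adjusted p = 0.83) for SXL over SSX in the authors' deposited table. Over GFP that gene had log2 fold changes of -2.52 (SXL) and -2.42 (SSX) by the authors' deposited tables. The fold changes of the 2 most lowered genes with SXL, FBgn0015288 and FBgn0026372, also did not pass between the proteins, with 0.17 and 0.29 (adjusted p = 0.672 and 0.269) in the authors' deposited table, though FBgn0026372 passed after centring (0.52, adjusted p = 0.032). Centred instead on the median of tested genes with a mean normalized count of 100 or above, FBgn0015288 passed as well (0.70, adjusted p = 0.034). The 60 genes differed less among themselves here, with an SD of 0.38 at a median standard error of 0.22, in the authors' deposited table.

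Genes of like mean normalized count were again on the opposite side, with the limit stated above that this mean holds the compared values themselves. With the mean normalized count at 1000 or above, 46 of the 57 ribosomal protein genes (80.7%) were called higher with SXL, against 41 of the 429 other genes (9.56%), of which 69.9% were called lower, in the authors' deposited table. The median of the nearest genes was at a median of -0.79, and the ribosomal protein genes exceeded the median of their nearest genes by 0.83 to 2.94, by the authors' deposited table. Of the 37 genes at that read support that were higher with SXL by more than 1, 18 (48.6%) were ribosomal protein genes by the authors' deposited table.

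**Figure D4:**
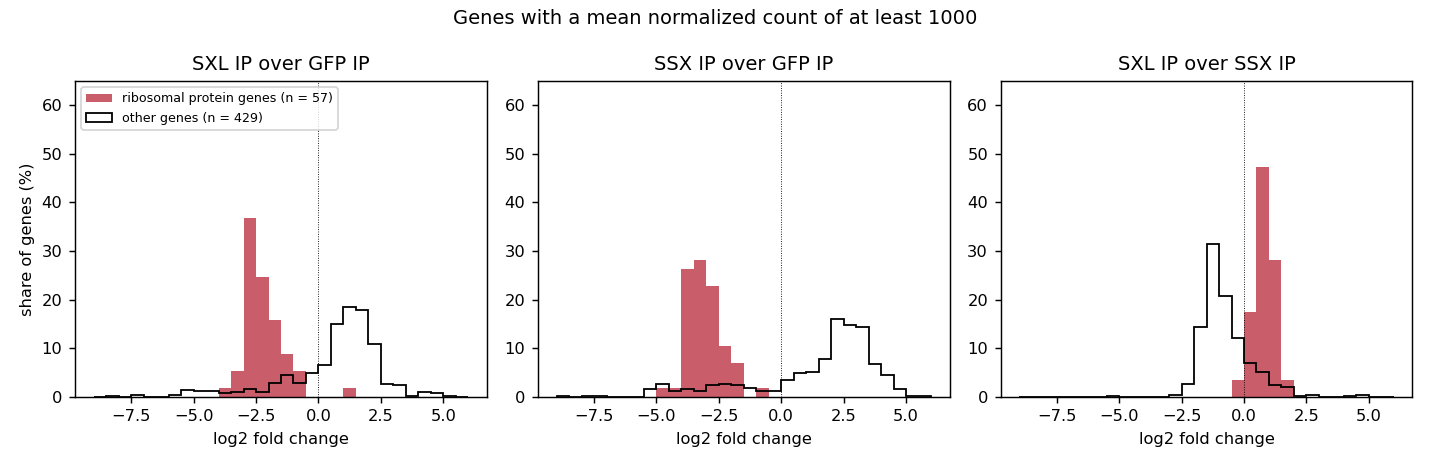
Share of genes (%) by log2 fold change in the authors' 3 tables for genes with a mean over all 7 libraries of 1000 or above, 57 ribosomal protein genes (red) and 429 other genes (black line). Against GFP the ribosomal protein genes centre on -2.42 with SXL and -3.10 with SSX while the other genes centre on 1.18 and 2.31, and for SXL over SSX they centre on 0.89 against -0.99.

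No ribosomal protein gene was in the authors' lists of enriched genes, which hold 956 of the 12297 genes with reads. For the 60 genes this follows from the fold changes above. Their highest log2 fold changes in the authors' deposited tables were 1.17 (SXL) and -0.62 (SSX). The lists, cut at a log2 fold change of 2 and an adjusted p of 0.001, hold 199 genes for SXL and 947 genes for SSX, and 0 of the 956 listed genes carried a symbol that starts with RpL or RpS or is sta. With the lists pairing identifiers and symbols, that count covers the whole class and not only the 60 genes. Ribosomal protein genes are short: in RefSeq the 93 genes of the class span a median of 1318 bp, against 7667 bp for the 920 listed protein-coding genes in the authors' lists and 2160 bp for all protein-coding genes in RefSeq. The part of gene length in these results was not tested.

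Of other genes of translation, few could be paired with an identifier: 1 of 28 initiation genes, 1 of 72 mitochondrial ribosomal protein genes, and 0 of the elongation, ribosome biogenesis and other pyrimidine-start genes. The authors had listed both paired genes for SSX, which fixes their direction. Thor, the 4E-binding protein that represses initiation downstream of TOR, had log2 fold changes of 1.64 (SXL, adjusted p = 0.0038) and 2.51 (SSX, adjusted p = 5.3e-07) by the authors' deposited tables. The mitochondrial ribosomal protein gene mRpS5 had 1.39 (SXL, adjusted p = 0.0503) and 2.20 (SSX, adjusted p = 0.00038) by the authors' deposited tables. For these cells, 1 of 10 haemocyte markers could be paired. The blood cell factor srp had 6032 and 6541 reads with SXL, 10150, 11967 and 9380 with SSX, and 89 and 109 with GFP, so it was read in every library. These reads are not scaled for the shallow GFP libraries. Divided by size factors they were 1811 and 1820 with SXL, 4726, 6162 and 5017 with SSX, and 1004 and 905 with GFP. Of the 4 neuron markers elav alone could be paired, with an implied mean normalized count of 136 in the GFP IP. Both srp and elav are among the authors' listed genes, which fixes their direction too.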

How the data were processed

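Per the labels, the RNA of each FLAG precipitate had its ribosomal RNA removed before stranded, paired-end sequencing with a low-input kit. The submitters' processing notes name BDGP6, DESeq, DESeq2, featureCounts, TopHat2 and Trimmomatic; versions, roles and the use of strand are not given in the sources used here. Each of the 3 full tables gives, per the file headers, the mean normalized signal over 7 libraries, the log2 fold change with its standard error, the test score, and the p-value before and after adjustment. The 2 shorter lists add deposited read counts per library for 956 genes, none of them a ribosomal protein gene studied here; 14 other per-library columns were not used. No count test could be run for these genes, so calls are those of the authors' tables at an adjusted p of 0.05. Of the 17559 genes, an adjusted p was given for 7170 (SXL over GFP), 9034 (SSX over GFP) and 9500 (SXL over SSX). No label says that replicates were separate cultures; the spread behind the p-values may be technical. Whether fold changes were moderated towards 0 is not given.

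Group means were solved for each gene from the mean over 7 libraries and the fold changes over GFP. On 253 listed genes with a mean of at least 1000, they differed from the means of deposited counts by a median log2 of 0.00 (SXL), -0.00 (SSX) and 0.03 (GFP), at most 0.88; those genes are low with GFP, unlike the ribosomal protein genes. Size factors are the least-squares solution that turns the deposited counts into the authors' means. Names came from the lists and from RefSeq synonyms (assembly Release 6 plus ISO1 MT), 1145 of 17559 identifiers in all. Identifiers are printed for at most 2 genes higher and 2 lower per comparison, by fold change, and for the far end. The genes and lists were chosen with earlier results of these data known. The code was tested on simulated data: genes with large standard errors were often missed, and the difference from nearest genes came out slightly too close to 0. The first pass mark for recovered genes was missed in a comparison. It was then replaced by a mark for genes with small standard errors only, which every comparison met. Python 3.11.15, pandas 2.3.3, numpy 2.4.6, scipy 1.17.1 and matplotlib 3.10.9 were used.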

Additional observations from a re-analysis of the deposited data

Results flagged for a closer look

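The normalized levels with the 2 proteins differed for 48 of the 60 ribosomal protein genes, by the direct test of SXL against SSX in the authors' deposited table. In that test 12 genes did not pass. All 48 were higher with SXL; of all 9500 genes tested there, 11.5% were called higher with SXL and 25.9% lower. The gene with the largest difference was FBgn0040007, with a log2 SXL over SSX of 1.79 (SE 0.41, adjusted p = 9.2e-05), 1.17 for SXL over GFP and -0.62 for SSX over GFP in the authors' deposited tables. Counts per library were not at hand for this gene, and what a single library adds to it was not tested. The authors' listed genes held 40.2% of the normalized counts in the SXL IP and 58.5% in the SSX IP. The part of this in the 48 calls was not tested.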

How the results depend on the processing

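The counts of genes lower with SXL (55 to 59) and with SSX (58 to 60) stayed within 1.5 times the reported 56 and 59 under stricter and looser thresholds, other filters and centring, while 48 genes higher with SXL than SSX became 20 when a log2 difference of 1 was required and 44 to 59 otherwise. The 1 gene higher with SXL than GFP became 0 at an adjusted p of 0.01, with adjustment over every gene with a p-value, and with either centring. Centred on the median of all tested genes, the median log2 fold change was -2.51 (SXL over GFP), -3.53 (SSX over GFP) and 1.14 (SXL over SSX); centred on the median of tested genes whose mean normalized count was 100 or above it was -2.95, -4.16 and 1.43. With 50 or 200 nearest genes the median differences were -3.32 and -3.55 (SXL over GFP), -5.29 and -5.35 (SSX over GFP) and 1.70 and 1.80 (SXL over SSX). Without the listed genes, the GFP share was 2.05 times the SXL share and 3.54 times the SSX share; without low genes or the 10 most read other genes it was 3.13 to 3.17 times the SXL share. The centring of medians and the share settings were chosen after seeing the data. No ribosomal protein gene had counts per library, so leaving out libraries and a count test, also at equal totals, could not be run. The shares are values at equal group totals. Summed over all genes, implied normalized counts were 2.46e+06 (SXL), 3.46e+06 (SSX) and 3.46e+06 (GFP). Equal totals would thus raise SXL values against both other groups, while centring lowered the SXL over GFP median. No value exists for genes matched to a symbol, since 0 were. No paired analysis was possible because the results come from the authors' tables and the library columns do not follow the replicate numbers of the labels.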
